A study of Mus musculus with 36 samples.

Results

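Gng13, Egfl6, Pnliprp2, Anpep and Slc7a11 were examined as 5 genes with strong changes in supporting cells of the fetal mouse ovary that are named less often than the classical ovarian genes. They are 5 of the 19938 genes that the array measured through a probe set with a single annotated symbol, and each had 1 such probe set. They were chosen by their measured levels in the supporting cell arrays, so these levels are given as a description, with no test, and tests are given for germ cells only. The set was described as XX-biased, and the arrays went against this for Pnliprp2, which was not higher in XX than in XY supporting cells at 12.5 or 13.5 days post coitum (dpc).

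RNA was measured on Affymetrix Mouse Gene 1.0 ST arrays in 12 groups of 3 arrays each. The groups were supporting cells and germ cells, sorted from XX and XY gonads at 3 stages (11.5 dpc, then 12.5 dpc and 13.5 dpc). XX supporting cells of all stages, and XY supporting cells at 11.5 dpc, carried the Sry reporter Tg(Sry-EGFP)92Ei and were CD-1 progeny, while XY supporting cells at 12.5 and 13.5 dpc carried a Sox9 reporter, Tg(Sox9-cre/ERT2)1Msan/J, and were C57BL/6 progeny. XX and XY germ cells carried an Oct4 reporter (progeny of C57BL/6NJ on mixed background). Gonads of one sex were pooled before sorting, and nothing states that replicate arrays stem from separate pools, so each p-value reflects the spread of these samples alone, which could be technical. Sex in supporting cells at 12.5 and 13.5 dpc, and any step from 11.5 dpc in XY supporting cells, cannot be told apart from reporter line and strain. XX and XY supporting cells shared both at 11.5 dpc, as did XY supporting cells of 12.5 and 13.5 dpc. Interstitial and stromal cells were not analysed here.

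Supporting cells are the somatic cells of the gonad that surround germ cells. In XY gonads Sry and then Sox9 turn them into Sertoli cells, and in XX gonads WNT signalling and the transcription factor FOXL2 take part in their change into pregranulosa cells, which later form follicles. The 5 genes belong to different biochemical families. Gng13 encodes a gamma subunit of heterotrimeric G proteins, known from taste and olfactory cells. Egfl6 encodes a secreted matrix protein with EGF-like repeats that binds integrins. Anpep (CD13) encodes a membrane aminopeptidase that trims peptides at the cell surface. Slc7a11 encodes the light chain of the cystine and glutamate exchanger, which brings in cystine for glutathione synthesis. Pnliprp2 encodes a relative of pancreatic lipase that hydrolyses galactolipids and triglycerides.

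Values are log2 expression, so a difference of 1 is a doubling, and they are set side by side for 1 gene at a time because probe sets differ in brightness. A pregranulosa marker list had array medians of 9.28 to 9.65 in XX supporting cells at 13.5 dpc and of 7.12 to 7.29 in XY supporting cells. Of its 14 measured genes, 10 were higher in XX at a limma adjusted p under 0.05, beside 5.02% of all genes. A Sertoli list had array medians of 6.77 to 7.07 in XX and of 9.47 to 9.81 in XY supporting cells. By the same test 14 of its 15 genes were lower in XX, beside 7.21% of all genes. The probe set of the defining gene Foxl2 lay between 6.02 and 6.82 in all 18 supporting cell arrays. In 17 germ cell arrays it lay between 5.68 and 6.85. It separated neither the sexes nor the cell types, and whether it reads the gene well was not tested. Fst, which encodes the activin antagonist follistatin, averaged 11.95 ± 0.19 in XX and 6.65 ± 0.13 in XY supporting cells at 13.5 dpc (SD, n = 3 each). Array medians of a germ cell list were 10.00 to 10.97 in 17 germ cell arrays and 5.21 to 6.63 in supporting cells. The remaining germ cell array, XX 12.5 dpc replicate 3, went against its label, with 5.04 for the germ cell gene Ddx4 and 10.82 for the stromal gene Tcf21, and it was left out of all comparisons except where its inclusion is named. In 35 of the 36 arrays the deposited values fell into 3 interleaved sets of rows on slightly different scales, whose medians lay 0.0157 to 0.7517 apart within an array, so differences of that size carry this step. Aligning the sets turned the sign of none of the differences between XX and XY supporting cells given below.

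Gng13 and Egfl6 were high only in XX supporting cells from 12.5 dpc on, among the supporting cell groups. Gng13 stood at 7.78, 7.63 and 7.94 in XX supporting cells at 11.5 dpc, at 10.43, 10.68 and 10.17 at 12.5 dpc, and at 11.04, 10.70 and 10.54 at 13.5 dpc. In XY supporting cells it was 7.20, 7.07 and 7.37 at 11.5 dpc, 6.998, 7.49 and 6.84 at 12.5 dpc, and 6.99, 6.62 and 6.89 at 13.5 dpc. No XX array overlapped an XY array of the same stage, but the gap was narrow at 11.5 dpc and wide afterwards. The XX minus XY difference was 0.57 at 11.5 dpc, 3.32 (10.0-fold) at 12.5 dpc and 3.92 (15.2-fold) at 13.5 dpc. Most of the change in XX cells lay between 11.5 and 12.5 dpc, where the later stage was higher by 2.64, and the arrays of 13.5 and 12.5 dpc overlapped.

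Egfl6 lies on the X chromosome and had, at 12.5 and 13.5 dpc, the widest difference of the 5 genes between XX and XY supporting cells. It stood at 6.69, 6.43 and 6.03 in XX supporting cells at 11.5 dpc, at 10.44, 10.48 and 10.35 at 12.5 dpc, and at 10.29, 10.08 and 10.10 at 13.5 dpc. In XY supporting cells it was 5.94, 5.41 and 5.76 at 11.5 dpc, 6.00, 5.71 and 5.59 at 12.5 dpc, and 5.59 in each array at 13.5 dpc. XY cells therefore stayed at a single low level through all 3 stages. XX was higher by 0.68 at 11.5 dpc, by 4.66 (25.2-fold) at 12.5 dpc and by 4.57 (23.7-fold) at 13.5 dpc. Within XX cells 12.5 dpc was above 11.5 dpc by 4.04 (16.5-fold), and 13.5 dpc was below 12.5 dpc, at -0.26. After the row sets were aligned that last difference was -0.04 and the arrays overlapped.

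Gng13 and Egfl6 moved together in the supporting cells by which they were chosen, which shows no shared control. The 250 bases before their annotated start sites were read from RefSeq (GRCm38.p6). The window of Gng13, at its first of 2 start sites, was chr17:25716922-25717171 on the plus strand, and that of Egfl6 was chrX:166585717-166585966 on the minus strand. Both are printed 5′ to 3′ on the strand of the gene.
Gng13: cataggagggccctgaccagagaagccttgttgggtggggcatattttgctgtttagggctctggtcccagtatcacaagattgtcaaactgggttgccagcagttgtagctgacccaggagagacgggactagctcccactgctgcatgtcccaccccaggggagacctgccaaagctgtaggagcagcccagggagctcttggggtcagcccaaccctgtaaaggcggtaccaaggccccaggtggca
Egfl6: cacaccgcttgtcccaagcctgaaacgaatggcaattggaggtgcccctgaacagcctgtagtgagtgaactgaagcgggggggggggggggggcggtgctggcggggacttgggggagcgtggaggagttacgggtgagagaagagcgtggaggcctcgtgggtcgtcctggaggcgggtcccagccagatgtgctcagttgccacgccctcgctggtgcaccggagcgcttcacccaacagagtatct
They were searched on both strands for 7 motifs, whose shares among 32851 mouse promoters of the same length are given for scale. The core of the amino acid response element, TGATGNAA, is held by 3.45% of them and the core of the antioxidant response element, TGACNNNGC, by 10.2%. The NR5A1 site CAAGGTCA is held by 1.33%. The forkhead motif TGTTTAC is held by 3.17%. The GATA factor motif AGATAA is held by 9.99%. The SOX motif AACAAT is held by 9.42%. The TCF and LEF motif CTTTGAT is held by 3.21%. Neither window held a match, nor did those of Anpep and Pnliprp2, nor that of the second Gng13 start site, which says only that these letters are not in these bases.

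Anpep, the aminopeptidase gene, was on in supporting cells of both sexes at 11.5 dpc and then moved in opposite directions. It stood at 9.21, 8.84 and 8.54 in XX supporting cells at 11.5 dpc, at 10.60, 10.89 and 10.05 at 12.5 dpc, and at 11.003, 10.64 and 10.24 at 13.5 dpc. In XY supporting cells it was 9.58, 9.17 and 9.37 at 11.5 dpc, 8.94, 7.64 and 9.25 at 12.5 dpc, and 6.92, 6.83 and 6.47 at 13.5 dpc. At 11.5 dpc the sexes overlapped, with an XX minus XY difference of -0.51, and at both later stages every XX array lay above every XY array. The difference was 1.90 (3.7-fold) at 12.5 dpc and 3.89 (14.8-fold) at 13.5 dpc. The change from the first to the last stage was 1.76 in XX cells and -2.63 in XY cells. The XY change cannot be told apart from the change of reporter line and strain after 11.5 dpc. Within the Sox9 reporter line, the 13.5 minus 12.5 dpc difference in XY cells was -1.87 (3.7-fold). In XX cells that difference was 0.11, with overlapping arrays, and the 12.5 minus 11.5 dpc difference was 1.65. One XY array of 12.5 dpc, replicate 2 at 7.64, lay more than 1 log2 unit under the other two.

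Slc7a11, the cystine exchanger gene, showed its sex difference at the earliest stage. It stood at 8.15, 8.26 and 8.42 in XX supporting cells at 11.5 dpc, at 8.05, 8.41 and 7.55 at 12.5 dpc, and at 5.90, 6.44 and 6.46 at 13.5 dpc. In XY supporting cells it was 5.06, 5.56 and 5.33 at 11.5 dpc, 4.81, 5.32 and 4.92 at 12.5 dpc, and 4.65, 4.57 and 4.93 at 13.5 dpc. XX and XY arrays did not overlap at any stage. The difference at 11.5 dpc, where the cells of both sexes carried the same reporter and strain, was 2.96 (7.8-fold), beside 0.57 for Gng13, 0.68 for Egfl6, 0.34 for Pnliprp2 and -0.51 for Anpep. It was 2.99 (7.9-fold) at 12.5 dpc and 1.55 (2.9-fold) at 13.5 dpc. In XX cells the level at 13.5 dpc was below that at 11.5 dpc, with a difference of -2.01 (4.0-fold), nearly all of it between 12.5 and 13.5 dpc (-1.74).

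The 250 bases before an annotated Slc7a11 start site, chr3:50443614-50443863 on the minus strand of GRCm38.p6 (RefSeq), are shown. This was the only window of the 5 genes with matches to the motifs above. It lies inside the annotated span of the gene, 50364936 to 50499087, and the bases before the upstream end of that span were not read. Capitals mark the matches.
Slc7a11: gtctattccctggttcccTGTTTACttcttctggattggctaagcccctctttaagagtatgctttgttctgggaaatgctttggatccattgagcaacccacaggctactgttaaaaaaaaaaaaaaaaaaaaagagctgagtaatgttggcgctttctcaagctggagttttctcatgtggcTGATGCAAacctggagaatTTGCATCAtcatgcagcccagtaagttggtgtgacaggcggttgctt
Counting back from -1 at the base before the start site, TGTTTAC lay at -232 to -226. TGATGCAA, a form of TGATGNAA, lay at -66 to -59, and its reverse complement TTGCATCA at -47 to -40. The matches do not overlap each other. They describe the sequence and show no binding. The window held 43.2% G and C, against 58.4 to 72.8% in the windows of the other 4 genes.

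Pnliprp2, the lipase-related gene, was highest in supporting cells of both sexes at 11.5 dpc and lower at each later stage. It stood at 11.97, 12.003 and 12.23 in XX supporting cells at 11.5 dpc, at 8.78, 9.19 and 10.64 at 12.5 dpc, and at 6.74, 6.47 and 6.56 at 13.5 dpc. In XY supporting cells it was 11.89, 11.62 and 11.68 at 11.5 dpc, 10.89, 9.30 and 9.92 at 12.5 dpc, and 7.68, 8.55 and 8.31 at 13.5 dpc. The 13.5 minus 11.5 dpc difference was -5.48 (44.6-fold) in XX and -3.55 (11.7-fold) in XY cells. At 11.5 dpc the XX arrays lay just above the XY arrays (0.34), and after the row sets were aligned the sexes overlapped (0.18). At 12.5 dpc they overlapped, with -0.50, and the XX arrays were spread over 8.78 to 10.64. Leaving out single arrays moved this difference between -1.05 (without XX replicate 3) and -0.07 (without XY replicate 1). At 13.5 dpc every XX array was below every XY array, with a difference of -1.59 (3.0-fold).

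**Figure D1:**
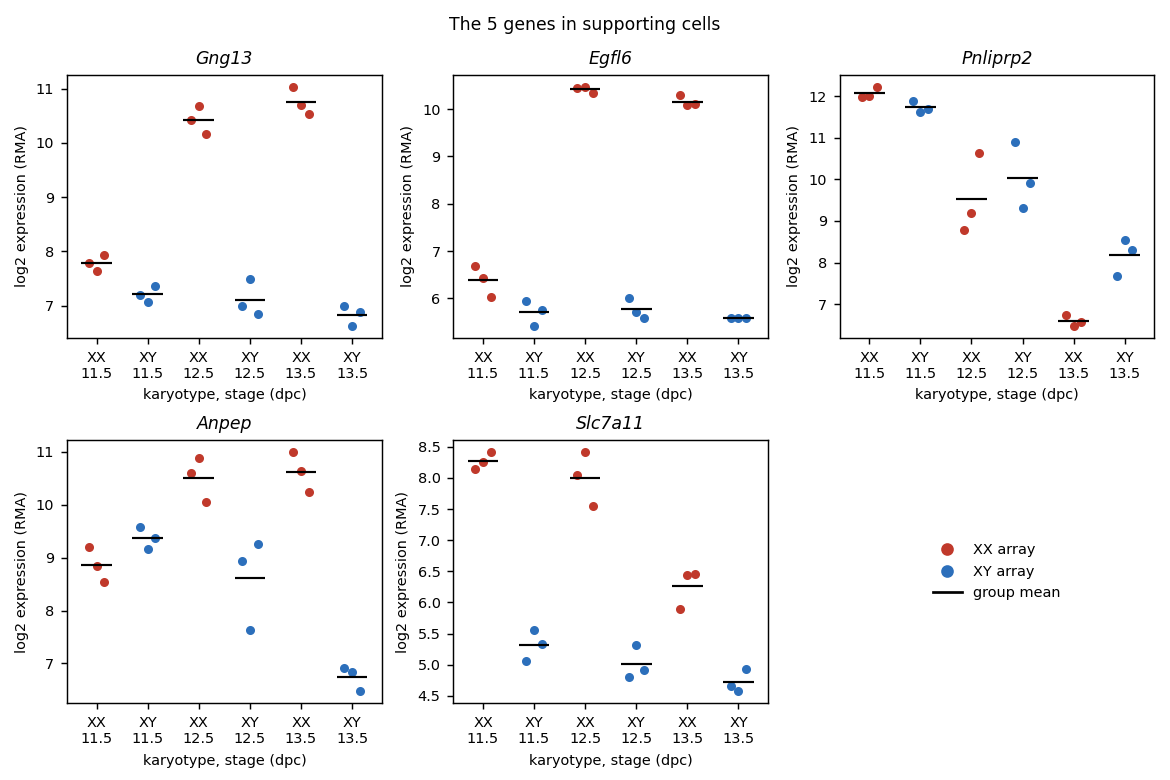
Log2 expression of the 5 genes in supporting cells, with karyotype and stage (dpc) on the horizontal axis. Each point is an array and each bar the mean of 3 arrays, and the vertical scale differs between panels and does not start at 0. Gng13 and Egfl6 were above 10 in XX cells from 12.5 dpc on, Anpep parted after 11.5 dpc, Slc7a11 was higher in XX at all stages, and Pnliprp2 was near 12 in both sexes at 11.5 dpc.

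The timing of the sex difference thus fell into 3 patterns. It was present at 11.5 dpc and smaller at 13.5 dpc for Slc7a11, and small at 11.5 dpc and wide from 12.5 dpc on for Gng13 and Egfl6. For Anpep it widened in 2 steps, and between 12.5 and 13.5 dpc XY cells changed by -1.87 and XX cells by 0.11. Pnliprp2 had a difference of the opposite sign at 13.5 dpc. The XY cells changed reporter line and strain between 11.5 and 12.5 dpc. Any step of these differences between those stages cannot be told apart from that change. Beside these values, 4 measured steroidogenic cell genes had array medians of 5.44 to 5.56 in XX and 6.98 to 7.59 in XY supporting cells at 13.5 dpc. All 4 were lower in XX at a limma adjusted p under 0.05, beside 7.21% of all genes. The germ cell list reached 6.60 in XX and 5.90 in XY supporting cells at that stage. Their part in the differences was not tested. In sorted bulk samples, fewer cells that express a gene and less RNA per cell cannot be told apart.

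**Figure D2:**
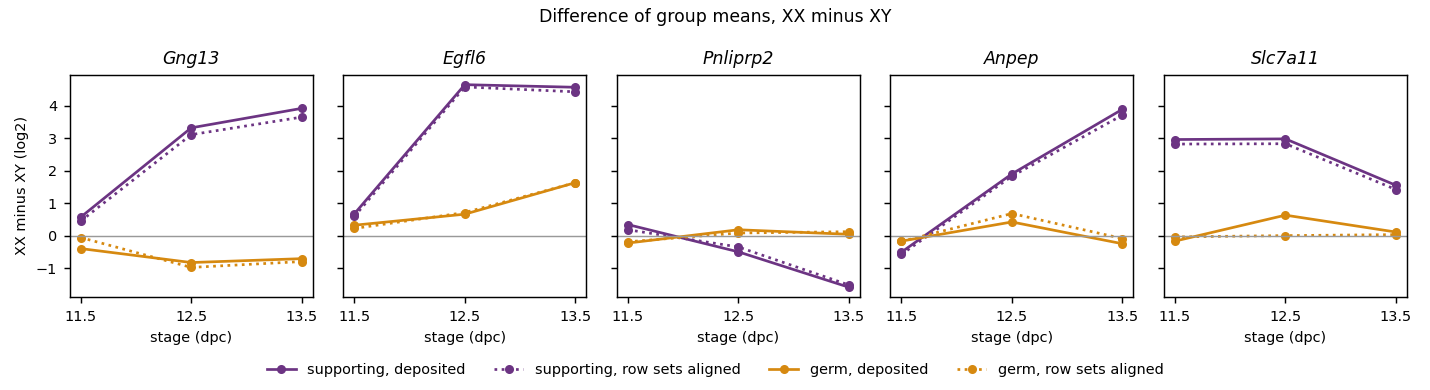
XX minus XY difference of group means (log2) by stage (dpc), in supporting cells (purple) and germ cells (orange), from the deposited values (solid lines) and after the row sets were aligned (dotted lines). At 13.5 dpc the supporting cell difference was 3.92 for Gng13, 4.57 for Egfl6, -1.59 for Pnliprp2, 3.89 for Anpep and 1.55 for Slc7a11.

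Over all 12 groups, the 5 genes differed in where germ cells stood. For Gng13 the order of means was XX supporting cells at 13.5 dpc (10.76 ± 0.25) and 12.5 dpc (10.43 ± 0.26), whose arrays overlapped, then the 6 germ cell groups (9.21 to 7.99), then XX supporting cells at 11.5 dpc (7.78 ± 0.15), and last the 3 XY supporting groups (7.21 to 6.84). Each germ cell group overlapped the next one in that order. Pnliprp2, Anpep and Slc7a11 were low in all germ cell groups, at 6.45 to 7.25, 7.10 to 7.58 and 4.72 to 5.35 as group means. At 13.5 dpc, XX supporting and XX germ cells overlapped for Pnliprp2 (6.59 ± 0.14 and 6.49 ± 0.28), while Anpep was higher by 3.53 (11.6-fold) in the supporting cells. Egfl6 had XX germ cells at 13.5 dpc next (7.19 ± 0.53), below XX supporting cells at 12.5 and 13.5 dpc and above the other 9 groups.

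Germ cells were not used to choose the genes, and in them Egfl6 rose in the XX sex. Egfl6 stood at 6.64, 6.11 and 5.78 in XX germ cells at 11.5 dpc, at 6.18 and 6.48 in the 2 arrays used at 12.5 dpc, and at 7.78, 6.77 and 7.02 at 13.5 dpc. In XY germ cells it was 5.69, 5.63 and 6.26 at 11.5 dpc, 5.70, 5.47 and 5.84 at 12.5 dpc, and 5.20, 5.63 and 5.85 at 13.5 dpc. The sexes overlapped at 11.5 dpc, and all XX arrays were above all XY arrays at 12.5 and 13.5 dpc. At 13.5 dpc XX was higher by 1.63 (SE 0.22, adjusted p = 4.19e-07, limma with Benjamini-Hochberg adjustment over 19938 genes), and Egfl6 was the only one of the 5 genes to pass, beside 9.21% of all genes. With XX 12.5 dpc replicate 3 included the difference was the same and the limma adjusted p was 0.0369. At 12.5 dpc the difference was 0.66 (SE 0.25, limma adjusted p = 0.177), and none of the 5 genes passed, beside 1.8% of all genes. With that array it was 1.96 (limma adjusted p = 0.0187), and with the row sets aligned 0.71 (limma adjusted p = 0.0344).

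The rise of Egfl6 from 11.5 to 13.5 dpc in XX germ cells was 1.01 (SE 0.22, limma adjusted p = 0.000731), the only member past the test beside 15.3% of all genes. The median of all genes in that comparison was -0.14, and -0.03 with the row sets aligned. The XX minus XY difference was wider at 13.5 than at 11.5 dpc by 1.31 (SE 0.32, limma adjusted p = 0.00904), again for Egfl6 only, beside 3.24% of all genes. XX 12.5 dpc replicate 3 belongs to neither comparison and enters them only through the estimate of spread shared by all groups. Including it left the differences at 1.01 and 1.31, and gave limma adjusted p = 0.192 for the XX rise and 0.524 for the wider difference. The second of these also missed the threshold without replicate 3 of XX germ cells at 11.5 dpc (limma adjusted p = 0.057) or without replicate 3 of XY germ cells at 11.5 dpc (limma adjusted p = 0.0539). The pregranulosa gene Fst, near 12 in XX supporting cells, averaged 7.12 ± 0.32 in XX and 6.99 ± 0.30 in XY germ cells at 13.5 dpc (SD, n = 3 each). The whole pregranulosa list had array medians of 6.73 to 6.92 in XX and 6.41 to 6.79 in XY germ cells at that stage. Of its 14 genes, 2 passed as higher in XX and 1 as lower, beside 9.21% of all genes in either direction. The part of such genes in the Egfl6 difference was not tested.

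Gng13 in germ cells had XY means above XX means at all 3 stages, unlike in supporting cells, but passed at no stage in the main comparisons. It stood at 7.72, 8.13 and 8.11 in XX germ cells at 11.5 dpc, at 8.70 and 7.72 at 12.5 dpc, and at 8.76, 8.56 and 8.19 at 13.5 dpc. In XY germ cells it was 9.11, 7.96 and 8.09 at 11.5 dpc, 8.64, 9.35 and 9.12 at 12.5 dpc, and 8.70, 9.42 and 9.52 at 13.5 dpc. The sexes overlapped at each stage. At 11.5 dpc the XX minus XY difference was -0.40 (SE 0.25), and with the row sets aligned the means were 8.09 in XX and 8.15 in XY. The XX minus XY difference at 13.5 dpc was -0.71 (SE 0.25, limma adjusted p = 0.065) and did not pass, although it did with the row sets aligned (-0.80, limma adjusted p = 0.0175). It also passed without replicate 1 of XX (-0.84, limma adjusted p = 0.0433) and without replicate 1 of XY germ cells at 13.5 dpc (-0.97, limma adjusted p = 0.0134). At 12.5 dpc it was -0.83 (SE 0.28, limma adjusted p = 0.115), and it passed without XX replicate 1 (-1.32, limma adjusted p = 0.0265), which leaves 1 XX array that is assumed to vary like the other groups.

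In XY germ cells Gng13 rose by 0.83 from 11.5 to 13.5 dpc (SE 0.25, limma adjusted p = 0.0287), the only one of the 5 genes to pass beside 7.09% of all genes. This call was lost with XX 12.5 dpc replicate 3 included (limma adjusted p = 0.118), which enters only the shared estimate of spread and left the difference at 0.83. It was also lost without replicate 2 or 3 of XY germ cells at 11.5 dpc (limma adjusted p = 0.211 and 0.21) and without replicate 2 or 3 at 13.5 dpc (limma adjusted p = 0.138 and 0.171). XX germ cells had a difference of 0.52 over the same stages (SE 0.25, limma adjusted p = 0.166). At 11.5 dpc none of the 5 genes passed between XX and XY germ cells, beside 0.0251% of all genes.

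Pnliprp2, Anpep and Slc7a11 passed no test in germ cells. Pnliprp2 ran from 6.22 to 7.39 over the 17 arrays, with a 13.5 minus 11.5 dpc difference of -0.80 in XY germ cells (SE 0.28, limma adjusted p = 0.0803) that passed when only germ cell arrays were fitted (limma adjusted p = 0.0197). Anpep ran from 6.57 to 7.79 and Slc7a11 from 4.53 to 5.43. Slc7a11 at 12.5 dpc had an XX minus XY difference of 0.63 (SE 0.23, limma adjusted p = 0.152). This was 0.75 with XX 12.5 dpc replicate 3 included (limma adjusted p = 0.0352) and 0.00 with the row sets aligned.

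**Figure D3:**
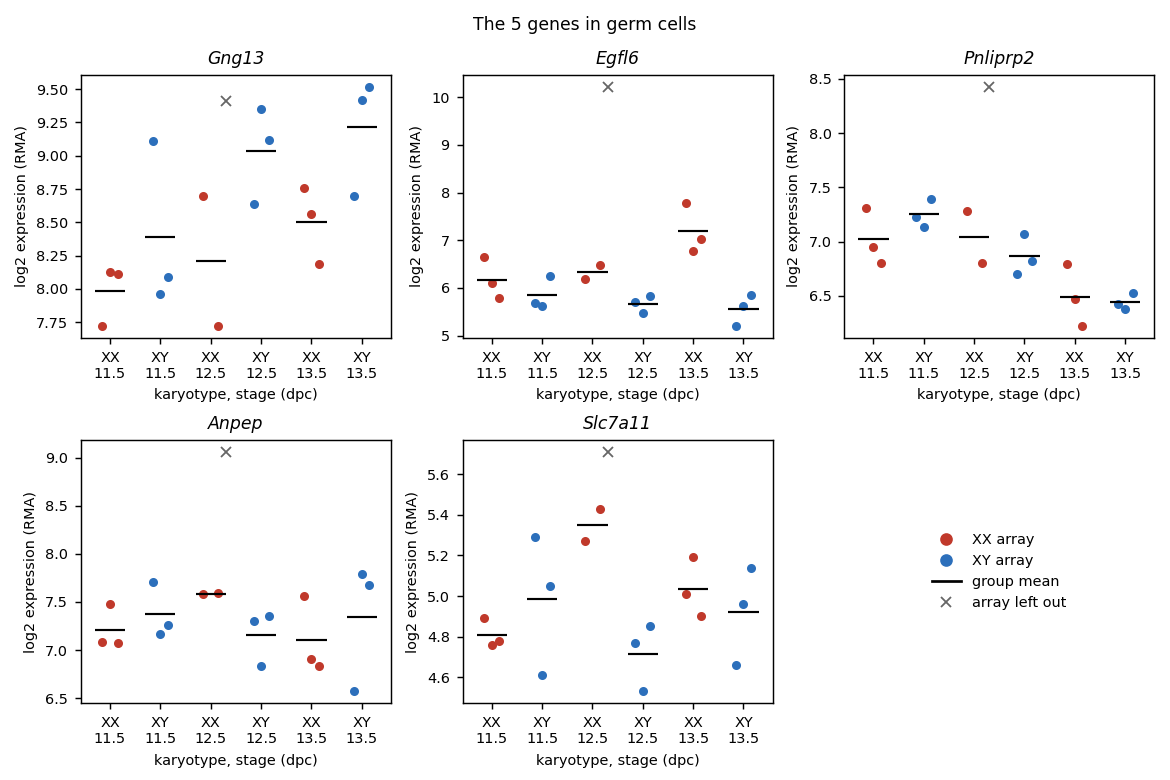
Log2 expression of the 5 genes in germ cells, with karyotype and stage (dpc) on the horizontal axis. Points are arrays, bars are means of the arrays used, crosses are XX 12.5 dpc replicate 3, which was left out, and the vertical scale differs between panels and does not start at 0. Egfl6 at 13.5 dpc lay at 6.77 to 7.78 in XX and at 5.20 to 5.85 in XY germ cells.

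Relatives and partners of the 5 genes were read in supporting cells from 6 lists, in XX minus XY at 13.5 dpc, where 12.2% of all genes passed the test (5.02% higher and 7.21% lower) and the median difference of all genes was 0.02, and in XX cells at 13.5 minus 11.5 dpc, where 4.1% passed (2.37% higher and 1.73% lower) and the median was -0.03. Of the other 16 G protein beta and gamma subunit genes, 0 passed as higher in XX than in XY. Only Gnb5, which encodes a beta subunit, passed as lower (-0.72, SE 0.21, limma adjusted p = 0.0143). Over the stages in XX cells, 0 of the 16 genes passed in limma. The medians of this list were -0.10 between the sexes and 0.01 between the stages. The count between the sexes was 0 without replicate 3 of XX or of XY supporting cells at 13.5 dpc, and 5 with the row sets aligned.

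Of 16 measured EGF-like matrix and integrin genes, 2 passed as higher and 2 as lower in XX, with a list median of -0.15. Npnt, which encodes the integrin ligand nephronectin, averaged 8.62 ± 0.51 in XX and 6.98 ± 0.11 in XY cells (1.63, SE 0.24, limma adjusted p = 4.61e-07). The extracellular matrix gene Fras1 was also higher, by 0.95 (SE 0.18, limma adjusted p = 8.71e-05). The 2 lower genes encode fibulins, Fbln2 at -2.39 (limma adjusted p = 3.7e-14) and Efemp1 at -1.46 (limma adjusted p = 3.5e-06), while Fbln1 (-0.26), Fbln5 (-0.15) and Fbln7 (0.01) did not pass. With the row sets aligned 7 genes of the list passed in each comparison. From 11.5 to 13.5 dpc in XX cells 3 genes of the list passed with a rise and 1 with a fall, with a list median of 0.02. Npnt rose by 1.30, Fras1 by 0.91 and the basement membrane gene Nid1 by 0.89 (limma adjusted p = 0.0192), and the matrix gene Matn2 fell by 1.47 (limma adjusted p = 4.84e-07). Npnt and Fras1 passed in both comparisons.

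Of 7 measured lipase and colipase genes, 0 passed as higher in XX than in XY cells at 13.5 dpc and 2 as lower, with a list median of -0.03. The 2 were Lpl (lipoprotein lipase) at -1.17 (limma adjusted p = 0.000315) and Clps (colipase) at -0.56 (limma adjusted p = 0.0363). Without replicate 2 or 3 of XX, or replicate 2 or 3 of XY supporting cells at 13.5 dpc, 1 gene passed. In XX cells 0 passed with a rise and 3 with a fall between 11.5 and 13.5 dpc, with a list median of -0.13. Pnliprp1, the coding gene next to Pnliprp2 on chromosome 19 in GRCm38.p6 and a relative of it, fell by 2.10 (SE 0.21, limma adjusted p = 9.59e-11). Its means were 7.34 ± 0.39, 6.13 ± 0.40 and 5.24 ± 0.08 in XX supporting cells at the 3 stages in turn, and 6.46 ± 0.44, 5.45 ± 0.21 and 5.17 ± 0.01 in XY supporting cells (SD, n = 3 each). Both neighbours were thus lower at each later stage in both sexes, and whether probes of one read RNA of the other was not tested. Lipg (endothelial lipase) fell by 0.87 and Lpl by 0.85 in XX cells (limma adjusted p = 0.00826 and 0.0324). Of the 3 genes, 1 passed without replicate 2 of XX cells at 11.5 dpc or replicate 3 at 13.5 dpc.

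Among 9 measured M1 family aminopeptidase genes, 0 passed as higher and 1 as lower in XX. The lower gene was Erap1 (-1.25, limma adjusted p = 0.000136), which trims peptides in the endoplasmic reticulum. From 11.5 to 13.5 dpc 0 passed with a rise and 1 with a fall. The fall was in Trhde (-0.69, limma adjusted p = 0.0497), which encodes the enzyme that degrades thyrotropin-releasing hormone. That count was 0 without replicate 2 or 3 of XX cells at 11.5 dpc, without each of the arrays of XX cells at 13.5 dpc in turn, with the left-out germ cell array included and with dim genes removed, and 2 with the row sets aligned. Between the sexes 3 passed with the row sets aligned. The list medians were 0.04 and -0.06. Of 10 heteromeric amino acid transporter genes, 1 passed between the sexes, and 0 passed in limma over the stages in XX cells. It was the large neutral amino acid transporter gene Slc7a5, lower in XX (8.56 ± 0.11 in XX and 9.91 ± 0.07 in XY, -1.34, limma adjusted p = 7.1e-06). Of 15 glutathione and cystine genes, 1 passed between the sexes and 0 over the stages. It was the glutathione synthetase gene Gss, lower in XX (-0.77, limma adjusted p = 0.012). The count between the sexes was 0 without replicate 3 of XX or of XY supporting cells at 13.5 dpc. With the row sets aligned it was 6, and 2 over the stages, beside 3 and 1 for the transporters. The medians were 0.18 and 0.07 for the transporters and -0.19 and -0.08 for the glutathione genes. Slc3a2, the heavy chain partner of Slc7a11, was not among the genes that passed.

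**Figure D4:**
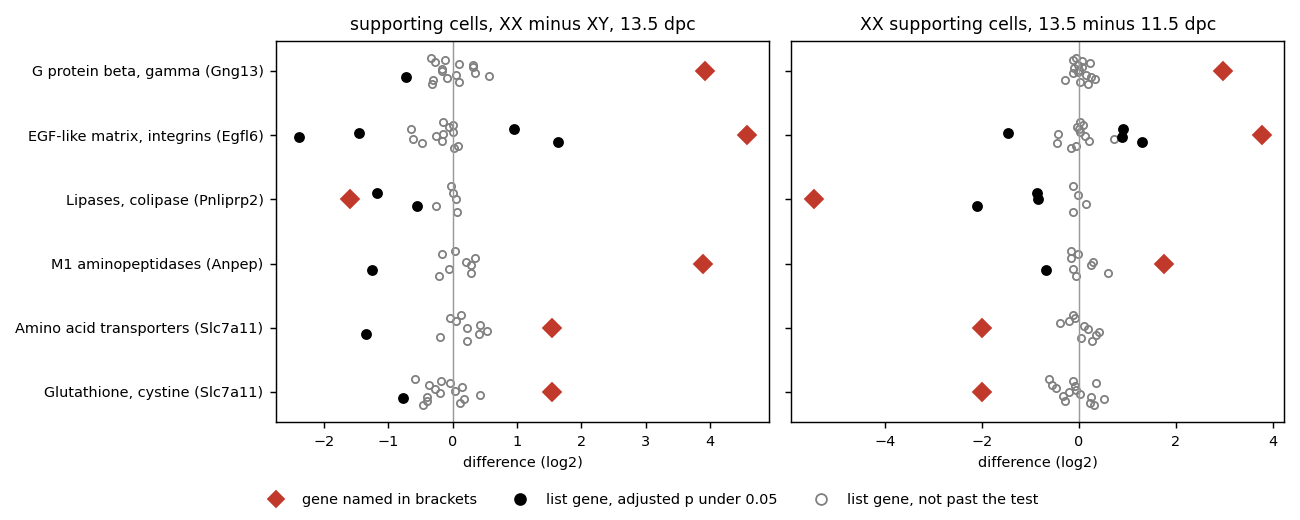
Differences (log2) of the genes of the 6 lists in supporting cells, XX minus XY at 13.5 dpc (left) and XX 13.5 minus 11.5 dpc (right). Red diamonds are the 5 genes, filled circles list genes with adjusted p under 0.05 and open circles the rest. The diamonds on the left lie at 3.92 for Gng13, 4.57 for Egfl6, -1.59 for Pnliprp2, 3.89 for Anpep and 1.55 for Slc7a11, which were chosen by such differences.

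Across the 12 group means, Gng13 and Egfl6 correlated at r = 0.80 and Egfl6 and Anpep at 0.77, while Gng13 and Pnliprp2 had -0.42. These are descriptions over 12 points that share arrays and normalisation. The 3 genes most like each member over these points were named as a description too. They were Amph (r = 0.955), Cnrip1 (0.939) and Tmem219 (0.938) for Gng13, Irx3os (0.974), Cacna1d (0.970) and Rbfox1 (0.970) for Egfl6, and Rflnb (0.968), Boc (0.950) and Mfap2 (0.948) for Anpep. For Slc7a11 they were Vmn1r35 (0.983), Adm (0.970) and Cd36 (0.970), and for Pnliprp2 6030498E09Rik (0.951), Cebpd (0.950) and Plac1 (0.949). After the row sets were aligned, 5 of these 15 genes stayed among the 3 most alike. Cacna1d, which encodes a subunit of a voltage-gated calcium channel, averaged 7.60, 9.53 and 9.61 in XX supporting cells at the 3 stages in turn, and 6.59, 6.38 and 6.07 in XY supporting cells. Cd36, a fatty acid transporter gene, averaged 7.01, 6.72 and 5.57 in XX and 5.28, 5.07 and 4.91 in XY supporting cells over the same stages. Plac1 averaged 9.71, 7.50 and 6.20 in XX and 8.19, 7.26 and 6.52 in XY supporting cells.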

How the data were processed

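The authors deposited log2 expression values per probe set, per the submitters' processing notes from RMA, of unstated version, for 35557 probe sets on 36 arrays. Array medians lay between 6.54 and 7.01, and the number of arrays limits the precision of every value. Of the 23410 annotated probe sets, 21789 had 1 symbol and 1621 several, and 12147 were unnamed here. The brightest probe set stood for each of the 999 genes with several.

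Testing used limma 3.58.1 (R 4.3.3) on 35 arrays, with 12 group means, 23 residual degrees of freedom and two-sided Benjamini-Hochberg adjusted p-values over 19938 genes. The threshold was 0.05. The fit was tested on simulated data. An SE is the moderated error of a contrast, which shares one estimate of spread over all groups. The members and lists were chosen with earlier results of these data known. Up to 4 genes with the lowest adjusted p were named from each list, and the 3 most correlated genes for each member. Promoters came from RefSeq (GRCm38.p6). No batch is given in the sources used here. Aligning the row sets divided each by its slope and gave all of them a single median.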

Additional observations from a re-analysis of the deposited data

Results flagged for a closer look

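The array labelled XX germ cells at 12.5 dpc, replicate 3, was left out of the main comparisons. In it Egfl6, Pnliprp2, Anpep and Slc7a11 were above all 17 other germ cell arrays. The share of all genes that did so was not counted, so this only describes the array. Egfl6 stood at 10.22 there and at most at 7.78 in the others, Pnliprp2 at 8.43 and 7.39, Anpep at 9.06 and 7.79, and Slc7a11 at 5.71 and 5.43. Gng13, at 9.41, was within the range of the others (up to 9.52). In the same array the germ cell genes Ddx4 and Pou5f1 were at 5.04 and 5.07, the pregranulosa list had a median of 9.31, and the stromal list had a median of 9.74, which was 6.02 to 7.27 in the other germ cell arrays.

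The difference between XX and XY germ cells in Egfl6 was not the same at 2 stages by a test of the difference itself. It was wider at 13.5 than at 11.5 dpc by 1.31 (SE 0.32, limma adjusted p = 0.00904). The Egfl6 difference was 1.63 at 13.5 dpc and 0.32 at 11.5 dpc.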

How the results depend on the processing

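Array weights gave more genes of some lists in supporting cells, up to 7 of the EGF-like matrix list and 7 of the glutathione list. No difference of the 5 genes past a test reversed. Between XX and XY supporting cells at 13.5 dpc they kept their direction under all 16 settings, between 3.65 and 4.11 for Gng13, 4.43 and 4.65 for Egfl6, 3.64 and 4.08 for Anpep, 1.43 and 1.73 for Slc7a11, and -1.84 and -1.41 for Pnliprp2. In germ cells Egfl6 at 13.5 dpc passed under every setting (1.21 to 1.84, limma adjusted p 3.22e-09 to 0.0369). With array weights the Egfl6 widening was 0.94 (limma adjusted p = 0.0628), the XY rise of Gng13 0.74 (0.0772), and Gng13 at 13.5 dpc -0.98 (0.00274), and Gng13 passed there with germ cell arrays only (0.0458). Array weights also moved the median of all genes, from -0.07 to -0.28 between XX and XY germ cells at 13.5 dpc. For the widening the median moved from -0.07 to -0.25, and for the XY rise from -0.03 to 0.05. The cause of these changes was not tested.

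Counts over all genes depended more on the setting. Between XX and XY germ cells at 11.5 dpc 5 genes passed, 20 with the row sets aligned and 14 with germ cell arrays only. At 12.5 dpc 358 passed, 773 with the left-out array, 767 with centred arrays, 752 after quantile normalisation and 91 with array weights. At 13.5 dpc 1837 passed, 3449 with the row sets aligned and 6238 with array weights. Over the stages, 3047 passed in XX germ cells (5061 with array weights) and 1414 in XY germ cells (923 with the left-out array, 2805 aligned). For the change of the sex difference 645 passed, 281 with the left-out array, 1528 aligned and 1598 with array weights. In supporting cells 2437 passed for XX minus XY at 13.5 dpc (5125 aligned, 6073 with array weights), and 817 in XX over the stages (2112 aligned, 2758 with array weights). Quantile normalisation raised the share of higher genes among those called to 53.7% in XX germ cells over the stages, against 38.1%, and to 51.8% in XY germ cells, against 40.9%.

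Of the 5 genes, 2 passed at 12.5 dpc with the left-out array and 1 with the row sets aligned, beside 773 and 390 of all 19938 genes. At 13.5 dpc 2 passed with the row sets aligned, germ cell arrays only or array weights. Of all genes, 3449, 1611 and 6238 passed there in turn. Over the stages 0 passed in XX germ cells with the left-out array, beside 2385 of all genes. In XY germ cells 0 passed with the left-out array or array weights, and 2 with germ cell arrays only. Of all genes, 923, 1286 and 1304 passed there in turn. For the change of the sex difference 0 passed with the left-out array or array weights, beside 281 and 1598 of all genes.

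Without each array in turn, the counts over all genes were 5 to 9 at 11.5 dpc, 92 to 316 at 12.5 dpc, 1194 to 2759 at 13.5 dpc, 2086 to 3940 in XX and 935 to 1393 in XY germ cells over the stages, and 416 to 848 for the change. In supporting cells they were 1885 to 2150 between the sexes and 616 to 679 over the stages. Of the 5 genes 0 to 1 passed at 12.5 dpc, 1 to 2 at 13.5 dpc, 0 to 1 in XY germ cells over the stages and 0 to 1 for the change.

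The labels name no litter behind the replicate numbers, and same-numbered arrays did not deviate together (pair correlations -0.278 to 0.203), so they share only a number. With the replicate number as a block, 6, 339 and 1809 genes passed between XX and XY germ cells at the 3 stages in turn, 3019 and 1422 over the stages in XX and XY germ cells, 638 for the change, and 2429 and 825 in the supporting cell comparisons, and the block changed no call of the 5 genes.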
